A study of Mus musculus with 24 samples.

Results

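The genes described here are 10 imprinted genes tied to growth control, *Igf2*, *H19*, *Dlk1*, *Meg3*, *Plagl1*, *Grb10*, *Ndn*, *Magel2*, *Mest* and *Peg10*. They were chosen by name, as the rows of the count tables that carry these gene symbols, and make up 10 of the 26411 genes counted in each library. In neural stem and progenitor cells (NSPCs) lacking *Kat6a*, *Grb10* was 2.75-fold lower than in wild-type cells under proliferation conditions, and *Ndn* was 2.16-fold higher under differentiation conditions. Differentiation itself was accompanied by larger differences in wild-type cells, with *Mest* 10.2-fold lower and *Plagl1* 8.99-fold higher.

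Imprinted genes are read from only one of the parental copies, because a region nearby was DNA-methylated in either the egg or the sperm and the mark is kept in the cells of the embryo. Several of them set how fast the embryo, the placenta and the brain grow. Genes active on the paternal copy often promote growth and genes active on the maternal copy often restrain it, and neighbouring genes of one domain can share a control region while being read from opposite copies. In the developing forebrain, imprinted genes act in the pace of progenitor division, in the exit from the cell cycle and in the survival of young neurons. The libraries measured the summed RNA of both parental copies, so imprinting itself was not measured.

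The libraries are bulk poly(A) RNA sequencing of NSPCs grown from the dorsal telencephalon, the future cerebral cortex, of E12.5 mouse embryos, the age at which the cortical progenitors begin to make neurons. *Kat6a* encodes a histone lysine acetyltransferase, and the study asked which genes need it in these cells. Wild-type *Kat6a*+/+, heterozygous *Kat6a*+/– and null *Kat6a*–/– cultures were each sampled under 2 conditions with 4 libraries per group, which gives 24 libraries in 6 groups. Each library carries the label of 1 embryo from litters of *Kat6a*+/– intercrosses on a C57BL/6 background.

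Proliferating cells of each genotype were kept for 3 days in medium with FGF2 and EGF. Differentiating cells of each genotype were kept for 3 days without these factors, in medium with 1% serum, on poly-L-ornithine and laminin. All cultures had been expanded in medium with FGF2 and EGF, passaged and frozen beforehand, so they are grown cell populations and not fresh tissue. The paper reports that wild-type cells grew as floating neurospheres, while heterozygous colonies were smaller and tended to attach. Null cells formed few floating colonies, attached to the plastic and proliferated more slowly. After differentiation, heterozygous and null cultures held fewer cells with the neuronal marker ßIII-tubulin. Growth form, growth rate and cell composition thus differed with genotype, and their part in the RNA differences was not tested. The null allele is constitutive, lacks a block of exons and ends translation early, within the acetyltransferase domain. RNA of proliferating and differentiating cells was extracted with different kits (RNeasy mini and RNeasy micro), so condition and extraction kit cannot be told apart in any comparison between them.

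The libraries held 7826660 to 40838203 counted reads. *Kat6a* counts include exons outside the deletion and so do not check the genotype; *Kat6a* stood at 370.2 to 399 CPM (read counts scaled to one common library total) in proliferating wild-type libraries and 334 to 388 in null ones, and at 235 to 288 and 158 to 249 in the differentiating ones. Summed over 10 neural stem cell markers, such as *Sox2* and *Nes*, the level was 7334 to 8639 CPM in the proliferating libraries and 7790 to 13879 in the differentiating ones. Much of the latter was *Vim*, at means of 4658 CPM in wild-type and 7332 CPM in null libraries. Of the 10 markers, 3 rose and 4 fell in differentiating null against wild-type cells, with a median log2 fold-change of -0.48. *Hes5* was at means of 33.5 and 1.88 CPM there. These markers were thus detected throughout, but their sum does not give the share of stem cells. Differentiating *Kat6a*–/– replicate 2 stood apart, with an 8-gene astrocyte marker sum of 7556 CPM against 1525 to 3440 in the other null libraries of that condition. Differentiating *Kat6a*+/– replicate 2 also stood apart, with an 8-gene pericyte and smooth muscle marker sum of 1996 CPM against 351 to 697 in the other heterozygous libraries. Over that group the sum was mostly *Acta2*, *Notch3* and *Tagln* (means of 460, 276 and 177 CPM). *Rgs5*, *Kcnj8*, *Abcc9*, *Myh11* and *Des* were each at or below 0.293 CPM, so the sum does not identify a cell type. Of 6 embryos labelled in both conditions, 5 were alike in Y-linked reads and 1, that of wild-type replicate 1, was not. Calls among the 10 genes were therefore also computed without each of these libraries. Y-linked reads were present in proliferating wild-type replicates 2, 3 and 4 and in differentiating wild-type replicates 1, 3 and 4. In each condition only replicate 3 of the null libraries and replicate 2 of the heterozygous ones had them. Sex and genotype were thus not balanced, and a term for sex was among the other settings.

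*Igf2* (chr7:142204503-142220694, minus strand, GRCm39) encodes insulin-like growth factor 2, a main growth factor of the fetus. *H19* (chr7:142129262-142133957, minus strand) lies 70.5 kb away and is a long non-coding RNA of the same imprinted domain, read from the maternal copy where *Igf2* is read from the paternal one. *Dlk1* (chr12:109418749-109429262, plus strand) encodes a transmembrane protein related to Notch ligands, and the non-coding *Meg3* (chr12:109506877-109538165, plus strand) follows at 77.6 kb. *Grb10* (chr11:11880498-11988683, minus strand) encodes an adaptor that binds insulin and IGF1 receptors and restrains growth. *Plagl1* (chr10:12936248-13007438, plus strand), also called Zac1, encodes a zinc-finger transcription factor that can hold back the cell cycle.

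*Ndn* (chr7:61995473-62000010, plus strand) and *Magel2* (chr7:62026758-62031388, plus strand) lie 26.7 kb apart in the domain that corresponds to the human Prader-Willi region, and both encode MAGE-family proteins. *Ndn* encodes necdin, which binds E2F1 and is known in neurons that have left the cell cycle. *Mest* (chr6:30723546-30752058, plus strand) encodes a membrane protein of the alpha/beta hydrolase fold. *Peg10* (chr6:4747306-4760517, plus strand) derives from a retrotransposon, is needed for the placenta, and starts 98 bases from *Sgce* in a head-to-head arrangement. An antisense gene, *Igf2os*, overlaps *Igf2* over 7265 bases, and *Copg2* overlaps *Mest* on the other strand over 10554 bases. The strand setting of the counting is not given in the sources used here, so reads from these overlaps could belong to either partner.

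Promoter sequences of *Grb10*, *Plagl1* and *Ndn*, which were each called between genotypes, are shown because imprinted control regions are recognised through short methylated motifs. Whether any of these promoter windows lies in such a control region was not determined. The windows run from 250 bases before to 50 after a RefSeq start (RefSeq table of build GRCm38.p6) and were placed by an exact match on GRCm39. Capitals mark TGCCGC or its reverse complement GCGGCA, the core that the imprint-maintenance protein ZFP57 reads when methylated.
Grb10, upstream start, chr11:11987371-11987670, minus strand: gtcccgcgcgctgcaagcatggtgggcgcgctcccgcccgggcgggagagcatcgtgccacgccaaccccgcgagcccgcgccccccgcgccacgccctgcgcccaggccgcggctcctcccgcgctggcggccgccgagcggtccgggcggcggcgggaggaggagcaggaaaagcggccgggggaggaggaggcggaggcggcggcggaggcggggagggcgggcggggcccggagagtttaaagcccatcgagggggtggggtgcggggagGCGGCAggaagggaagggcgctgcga
Grb10, downstream start, chr11:11977922-11978221, minus strand: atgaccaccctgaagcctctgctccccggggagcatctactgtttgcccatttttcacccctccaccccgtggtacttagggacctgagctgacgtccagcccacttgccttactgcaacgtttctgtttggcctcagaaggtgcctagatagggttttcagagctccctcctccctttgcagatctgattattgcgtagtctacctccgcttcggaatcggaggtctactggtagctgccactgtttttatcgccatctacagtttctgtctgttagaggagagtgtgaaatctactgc
Plagl1, chr10:12966326-12966625, plus strand: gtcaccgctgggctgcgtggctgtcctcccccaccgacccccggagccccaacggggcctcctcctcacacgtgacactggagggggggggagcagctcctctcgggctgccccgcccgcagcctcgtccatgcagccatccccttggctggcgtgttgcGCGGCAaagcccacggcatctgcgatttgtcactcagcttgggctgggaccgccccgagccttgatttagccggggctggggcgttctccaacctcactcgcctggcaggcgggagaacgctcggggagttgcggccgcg
Ndn, chr7:61997775-61998074, plus strand: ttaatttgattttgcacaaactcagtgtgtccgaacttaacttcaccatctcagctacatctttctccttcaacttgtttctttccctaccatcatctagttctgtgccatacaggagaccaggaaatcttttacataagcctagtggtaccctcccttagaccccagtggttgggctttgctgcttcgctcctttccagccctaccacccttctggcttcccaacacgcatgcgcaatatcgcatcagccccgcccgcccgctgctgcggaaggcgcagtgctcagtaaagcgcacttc

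The upstream *Grb10* window held 45 CpG dinucleotides and was 80% G or C, and the downstream window held 9. The *Plagl1* window held 26 CpG dinucleotides and the *Ndn* window 11, against a median of 7 over 32851 windows of 27025 genes. The RefSeq start of *Ndn* lies 1708 bases from the nearest start in the GENCODE annotation. The motif was present in the upstream *Grb10* window and the *Plagl1* window and not in the other printed pair. Of the 10 genes, 8 had at least 1 window, 15 windows in all, and 6 of these windows, from 5 genes, held the motif, with 2 *Mest* windows overlapping each other. Over all windows, 11.6% held it, a share not matched for CpG content, whose median was 11 per window over the 15. The counts do not separate transcripts by start site, so no level can be given to a single promoter.

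*H19* and *Mest* are also hosts of microRNAs. *Mir675* lies inside an exon of *H19* and *Mir335* inside an intron of *Mest*. Their mature sequences from RefSeq are shown with the seed, bases 2 to 8, in capitals, because both hosts are described library by library. Mature microRNAs were not measured in poly(A) libraries.
mmu-miR-675-5p: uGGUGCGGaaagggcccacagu
mmu-miR-675-3p: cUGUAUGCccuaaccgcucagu
mmu-miR-335-5p: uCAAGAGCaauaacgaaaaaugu
mmu-miR-335-3p: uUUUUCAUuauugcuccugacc

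No seed is shared among the 4 sequences.

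Levels are given as CPM of the library total scaled by TMM, a factor that corrects for differences in RNA composition. Values of 4 libraries are listed in replicate order, and comparisons between genes use CPM per kilobase of counted exon. In proliferating wild-type cells, *Mest* stood highest at 312 ± 32.2 CPM per kilobase (SD, n = 4), followed by *Peg10* at 209 ± 34.9. *Ndn* at 37.1 ± 8.92 and *Grb10* at 32.2 ± 9.12 CPM per kilobase came next and did not differ beyond their spread. *H19* followed at 2.32 ± 1.21 CPM per kilobase and *Plagl1* at 1.12 ± 0.259, while *Igf2*, *Dlk1*, *Magel2* and *Meg3* were each below 0.2.

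In differentiating wild-type cells the order was different. *Peg10* led at 121 ± 18.4 CPM per kilobase, and *Ndn* at 35.9 ± 5.91 and *Mest* at 31.0 ± 4.54 followed with overlapping spreads. *Plagl1* rose to the fourth place at 9.40 ± 1.34 CPM per kilobase, ahead of *Grb10* at 5.42 ± 3.49, and *H19* came sixth at 1.21 ± 0.324. *Dlk1* stood at 0.614 ± 0.296, *Igf2* at 0.342 ± 0.151 and *Meg3* at 0.0139 ± 0.0113 CPM per kilobase, and *Magel2* had no read. *Mest* and *Peg10* together supplied 90.4% of the summed CPM of the 10 genes in proliferating wild-type cells and 86.0% in differentiating ones. That sum was 2503 ± 284 CPM and 1036 ± 142 CPM (SD, n = 4 each), and in null cells 2227 ± 480.4 and 804 ± 48.3.

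**Figure D1:**
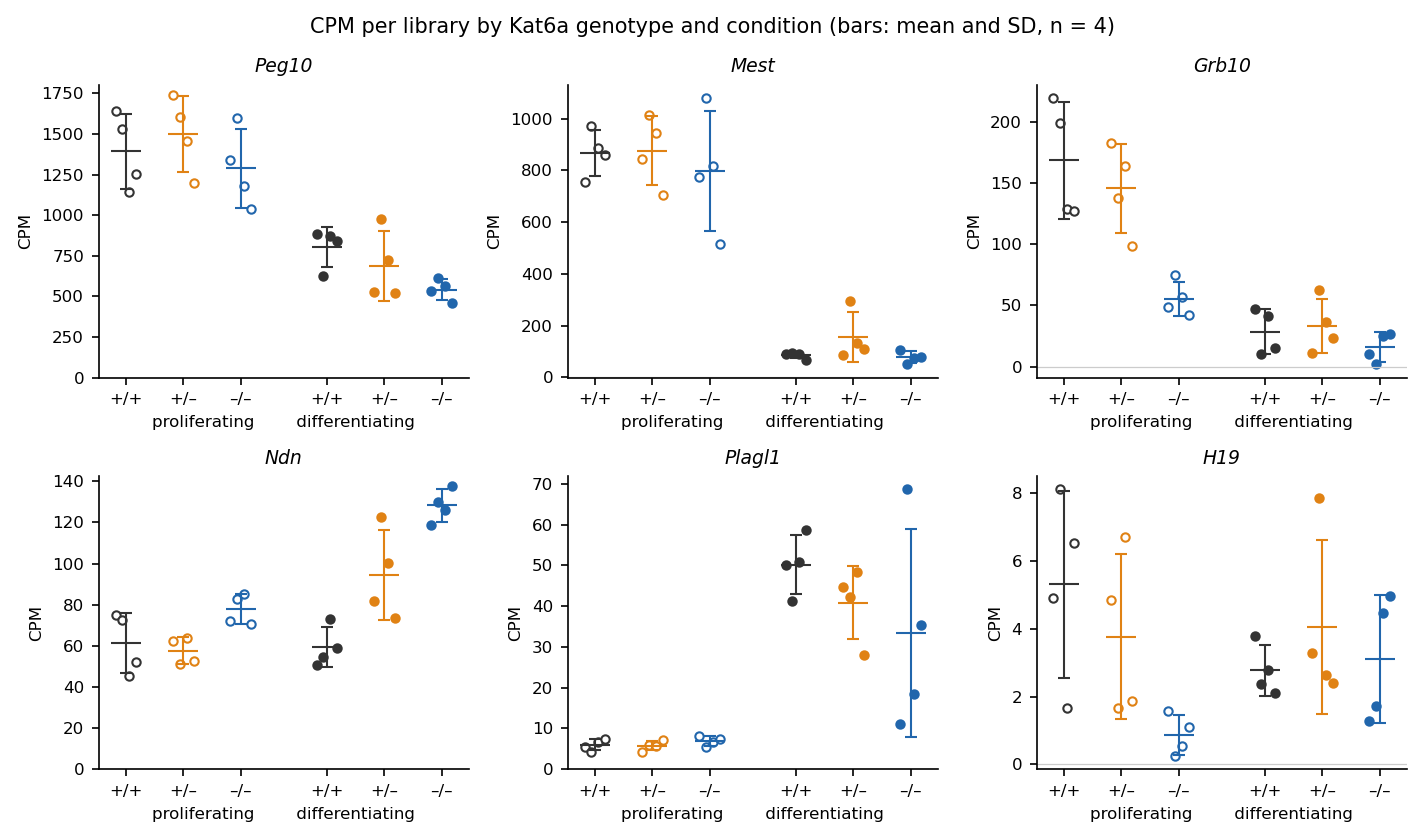
Level (CPM, linear axes) of *Peg10*, *Mest*, *Grb10*, *Ndn*, *Plagl1* and *H19* by *Kat6a* genotype and condition, 1 point per library (open, proliferating; filled, differentiating), with bars for the mean and SD of 4 libraries. *Grb10* in proliferating null libraries (42.2 to 74.3 CPM) lies below every wild-type library (127 to 219 CPM), and *Ndn* in differentiating null libraries (119 to 138 CPM) lies above every wild-type one (50.9 to 73.1 CPM).

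The question of the next comparison was how these genes change as wild-type cells differentiate. Of 9 genes that passed the filter on low counts, 2 rose and 3 fell in differentiating compared with proliferating wild-type cells, against a background of 72.1% of all 14704 genes called at an FDR under 0.05 (37.6% higher and 34.6% lower). In 5 of the 9 the 4 libraries of each group did not overlap, as for 71% of all genes. The median log2 fold-change of the 9 was -0.07 and that of all genes 0.05. The genes that fell were *Mest*, *Grb10* and *Peg10*, and the genes that rose were *Plagl1* and *Dlk1*.

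*Mest* stood at 754, 971, 885 and 861 CPM in proliferating and 90.3, 94.4, 92.2 and 67.3 CPM in differentiating wild-type libraries. The groups were far apart, and the log2 fold-change was -3.35 (SE 0.29, 95% CI -3.95 to -2.75, limma FDR = 2.04e-09). *Grb10*, the growth-restraining adaptor, stood at 219, 199, 128 and 127 CPM and then at 46.6, 10.5, 41.4 and 14.9 CPM. All differentiating libraries were lower than all proliferating ones but varied among themselves, with replicates 2 and 4 lower than replicates 1 and 3, and the log2 fold-change was -2.81 (SE 0.51, 95% CI -3.88 to -1.74, limma FDR = 5.29e-05). *Peg10* stood at 1641, 1533, 1143 and 1256 CPM and then at 885, 623, 869.7 and 841 CPM. Every differentiating library was lower, at a smaller log2 fold-change of -0.78 (SE 0.19, 95% CI -1.17 to -0.39, limma FDR = 0.000918).

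*Plagl1*, which encodes the zinc-finger factor, stood at 5.45, 4.29, 6.69 and 7.43 CPM in proliferating and 50.2, 41.1, 50.9 and 58.6 CPM in differentiating wild-type libraries. The groups did not overlap, and the log2 fold-change was 3.17 (SE 0.46, 95% CI 2.22 to 4.12, limma FDR = 2.81e-06). *Dlk1* had 3, 12, 1 and 0 reads in the proliferating libraries and 20, 76, 54 and 97 in the differentiating ones, which corresponds to 1.09 to 4.09 CPM in the latter. Its fitted log2 fold-change of 4.15 (SE 1.39, limma FDR = 0.0112) rests on few reads at the low end, and its FDR was 0.0667 without proliferating wild-type replicate 1.

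*Ndn* did not pass the test between conditions in wild-type cells, with 74.8, 72.8, 45.5 and 52.0 CPM in proliferating and 50.9, 54.4, 73.1 and 58.9 CPM in differentiating libraries and a log2 difference of -0.07 (SE 0.16, 95% CI -0.40 to 0.26, limma FDR = 0.707). The growth factor gene *Igf2* was low under both conditions, at 0.471 to 1.38 and 1.04 to 2.56 CPM, with a log2 difference of 0.94 (SE 0.52, limma FDR = 0.111). *H19* stood at 1.67 to 8.12 and 2.12 to 3.80 CPM with a log2 difference of -0.86 (SE 0.46, limma FDR = 0.0999), and its FDR was 0.0199 without proliferating wild-type replicate 3. *Meg3* had 2 reads in all 4 proliferating wild-type libraries together and 14 in the differentiating ones, with a log2 difference of 1.70 (SE 1.29, limma FDR = 0.24). *Magel2* had 21 reads over the proliferating wild-type libraries, 15 and 6 of them in replicates 1 and 2, and none in any of the 12 differentiating libraries of the 3 genotypes. Taking 3 reads as the limit that a count of 0 allows, *Magel2* was below 0.125 to 0.203 CPM in the differentiating libraries.

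Markers of other cells moved with the condition. The summed level of 15 mesenchymal and meningeal markers was 109 to 134 CPM in proliferating and 437 to 517 CPM in differentiating wild-type libraries, with *Ogn* at a mean of 291 CPM and *Col1a1* at 6.13 CPM in the latter, and *Twist2* and *Aldh1a2* at 0 in both. Of the 9 tested, 4 rose and 1 fell. The pericyte and smooth muscle sum was 111 to 143 and 404 to 863 CPM (3 of 4 rose and 1 fell), and that of 8 skeletal muscle markers 4.78 to 5.81 and 56.9 to 131 CPM (2 of 4 rose and 1 fell). In differentiating wild-type cells the first sum was mostly *Acta2* and *Notch3* (means of 289 and 232 CPM). *Rgs5*, *Kcnj8*, *Abcc9*, *Myh11* and *Des* were each at or below 0.327 CPM. The second was nearly all *Myh8* (84.8 CPM), with *Myod1*, *Myog*, *Myf5* and *Ckm* at or near 0. Neither sum therefore identifies a cell type. The astrocyte sum was 896 to 1125 and 1809 to 2516 CPM, with 5 of 8 markers higher. The neuron sum was 936 to 1218 and 547 to 739 CPM, although 4 of the 10 neuron markers rose and 4 fell, with a median log2 fold-change of 0.56. The sum of 8 oligodendrocyte lineage markers was 2246 to 2679 and 1193 to 1402 CPM, with 2 of 7 higher and 5 lower. The part of other cell types in the changes of the imprinted genes was not tested. In bulk RNA, fewer cells that express a gene and less RNA of that gene per cell cannot be told apart.

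**Figure D2:**
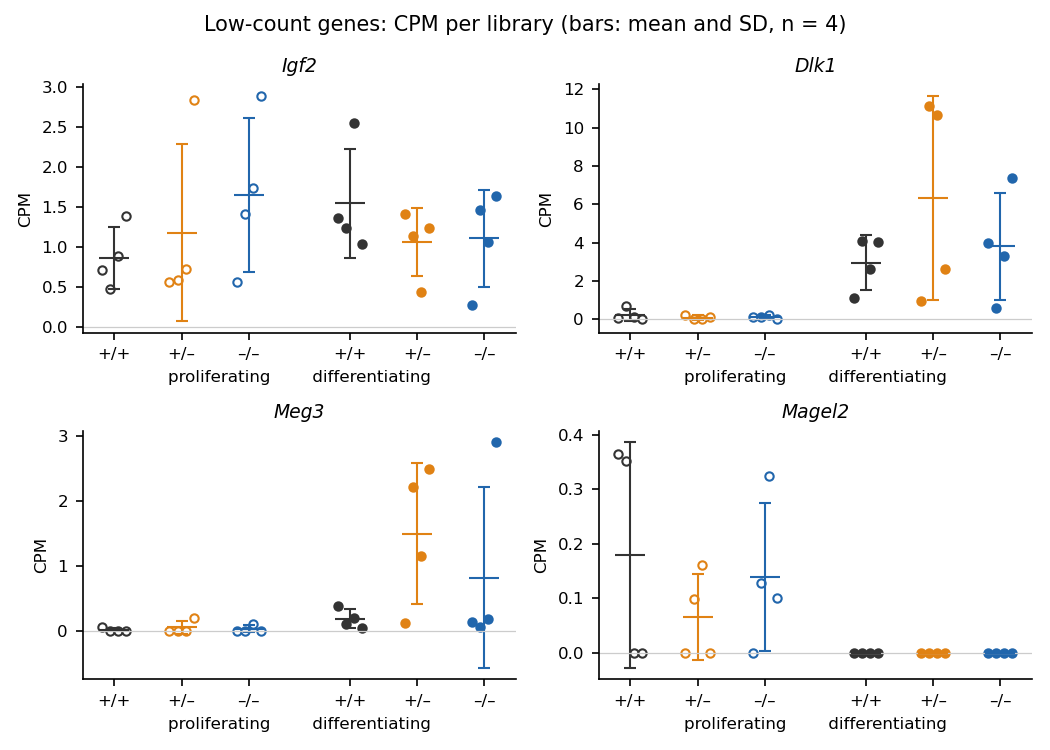
Level (CPM, linear axes) of *Igf2*, *Dlk1*, *Meg3* and *Magel2* by *Kat6a* genotype and condition, drawn as 1 point per library with bars for the mean and SD of 4 libraries. All 12 differentiating libraries have 0 reads of *Magel2*, and *Dlk1* stays at or below 0.706 CPM in every proliferating library.

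For the 5 genes called between conditions in wild-type cells, the direction was the same within embryos. Of the embryos compared, 3 were null, 1 heterozygous and 1 wild type, so the values of every gene mostly describe null cells. The libraries of the wild-type embryo were also part of the wild-type test. In the 5 embryos whose libraries matched in both conditions, *Mest* was lower in differentiating cells in 5 of 5, by log2 differences of -4.40 to -2.71. *Grb10* was lower in 5 of 5, at -5.34 to -0.65, and *Peg10* was lower in 5 of 5, at -1.46 to -0.39. *Plagl1* was higher in 5 of 5, at 1.45 to 3.67, and *Dlk1* was higher in 5 of 5. For *Ndn* and *H19*, which were not called, the embryos did not follow the wild-type group means, whose log2 differences were -0.07 and -0.86. *Ndn* was higher in 5 of 5, at 0.36 to 0.97; of these embryos 1 was wild type, 1 heterozygous and 3 null, so the *Ndn* values mostly describe null cells. *H19* was higher in 4 of 5 and *Igf2* in 3 of 5.

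**Figure D3:**
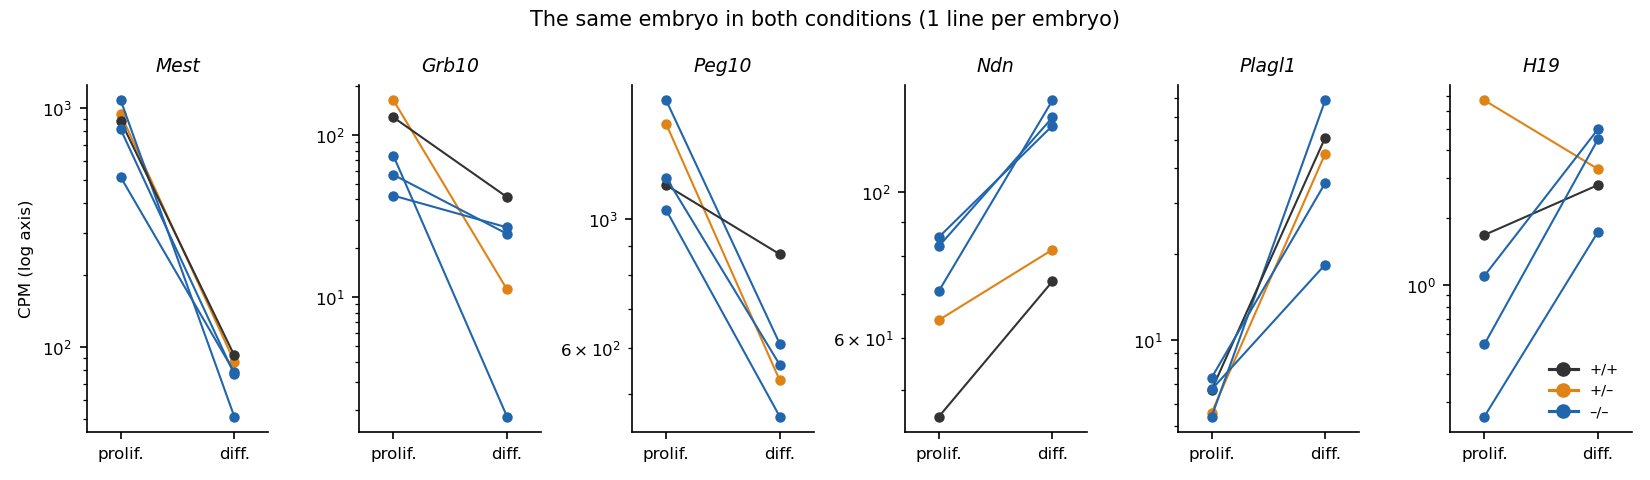
Level (CPM, log axis) of 6 of the genes in proliferating and differentiating cultures of the same 5 embryos, each line 1 embryo, coloured by genotype. Lines for *Mest*, *Grb10* and *Peg10* fall and lines for *Plagl1* and *Ndn* rise in 5 of 5 embryos, and *H19* rises in 4 of 5.

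The central comparison was between *Kat6a*–/– and *Kat6a*+/+ cells. Under proliferation conditions 1 of the 7 genes tested rose (*Ndn*) and 1 fell (*Grb10*), where 29.4% of all 12989 genes were called (15.9% higher and 13.5% lower). The share of the 7 is close to that background. In 2 of the 7, *Grb10* and *H19*, all 4 null libraries lay below all 4 wild-type libraries, a separation seen in 30.4% of all genes. Without wild-type replicate 1, 2421 genes were called in place of 3813. The median log2 fold-change of the 7 was -0.03 and that of all genes was 0.00 when rounded.

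*Grb10* stood at 219, 199, 128 and 127 CPM in proliferating wild-type libraries, at 182, 138, 164 and 98.2 CPM in heterozygous ones and at 48.5, 74.3, 56.8 and 42.2 CPM in null ones. The null libraries were all lower than every library of either other genotype, and wild-type and heterozygous libraries overlapped. The log2 fold-change of null against wild type was -1.46 (SE 0.22, 95% CI -1.95 to -0.98, limma FDR = 0.000749). Within the 2 litters that held both genotypes the log2 difference was -1.06 and -1.16. Leaving out each library in turn gave -1.62 to -1.36, each time past the threshold.

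*H19*, the non-coding partner of *Igf2*, stood at 4.91, 8.12, 1.67 and 6.55 CPM in proliferating wild-type, 4.84, 1.67, 6.71 and 1.86 CPM in heterozygous and 1.58, 0.257, 0.542 and 1.10 CPM in null libraries. The null libraries held only 14, 2, 5 and 11 reads, and all of them lay below the libraries of the other genotypes. Null replicate 1 lay close to wild-type replicate 3 and heterozygous replicate 2. The log2 fold-change against wild type was -2.24 (SE 0.80, 95% CI -3.98 to -0.50, limma FDR = 0.0524), just outside the threshold. The count-based tests placed it inside, with a log2 fold-change of -2.58 by edgeR (FDR = 0.00955) and -2.59 by DESeq2 (FDR = 0.000213), as did limma with no filter on low counts (limma FDR = 0.0436) or no litter block (limma FDR = 0.0243). It was also inside without proliferating wild-type replicate 3 (limma FDR = 0.0149), heterozygous replicate 3 (limma FDR = 0.0375) or heterozygous replicate 4 (limma FDR = 0.0396). It was thus inside in 4 of 9 other settings and without 3 of 12 single libraries. In the remaining fits it was outside, with limma FDR up to 0.126 and 0.168.

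*Ndn* stood at 74.8, 72.8, 45.5 and 52.0 CPM in proliferating wild-type, 62.4, 51.2, 63.8 and 52.5 CPM in heterozygous and 72.2, 82.7, 85.4 and 70.7 CPM in null libraries. Null and wild-type libraries overlapped, since wild-type replicates 1 and 2 lay within the null range. The log2 fold-change was 0.42 (SE 0.14, 95% CI 0.12 to 0.72, limma FDR = 0.0355), and the call was lost in 6 of 10 other settings, with edgeR at FDR = 0.104, DESeq2 at FDR = 0.0843 and a term for sex at limma FDR = 0.109. It was also lost without wild-type replicate 3 (0.27, limma FDR = 0.135) or 4 (limma FDR = 0.0939), null replicate 2, 3 or 4 (limma FDR = 0.077, 0.0976 and 0.0918) and heterozygous replicate 1 or 4 (limma FDR = 0.0566 and 0.0557).

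The other proliferating members gave no call. *Plagl1* was at 4.29 to 7.43 CPM in wild-type and 5.40 to 8.24 CPM in null libraries, with a log2 difference of 0.21 (SE 0.19, 95% CI -0.20 to 0.63, limma FDR = 0.42). *Mest* was at 754 to 971 and 514 to 1080.0 CPM, with -0.14 (SE 0.15, 95% CI -0.48 to 0.19, limma FDR = 0.503), and *Peg10* at 1143 to 1641 and 1036 to 1599 CPM, with -0.03 (SE 0.13, 95% CI -0.32 to 0.26, limma FDR = 0.892). For *Mest* and *Peg10*, the most abundant of the 10, the intervals leave room for differences of less than 0.5 on the log2 scale. *Igf2* had 29, 8, 9 and 11 reads in wild-type and 5, 11, 16 and 29 reads in null libraries, where wild-type replicate 1 was the deepest library. These were 0.705, 0.471, 0.886 and 1.38 CPM against 0.564, 1.41, 1.73 and 2.90 CPM, so 3 null libraries lay above every wild-type one. The interval of *Igf2* was wide, 0.78 (SE 0.46, 95% CI -0.21 to 1.78, limma FDR = 0.216). *Dlk1*, *Meg3* and *Magel2* did not pass the filter in proliferating cells, where *Dlk1* had 0 to 12 reads per library, *Meg3* 0 to 2 and *Magel2* 0 to 15, so a difference was not detectable at this depth.

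The astrocyte marker sum moved with genotype in these libraries, at 896 to 1125 CPM in wild-type, 1145 to 1553 in heterozygous and 1542 to 2258 in null cells, and 5 of 7 tested astrocyte markers rose in null cells. The neuron sum was 936 to 1218 CPM in wild-type and 1173 to 1326 CPM in null cells, while of the 9 neuron markers tested 1 rose and 3 fell, with a median log2 fold-change of -0.23. Whether these populations take part in the *Grb10* and *Ndn* differences was not tested.

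Under differentiation conditions 1 of the 9 genes tested rose (*Ndn*) and 2 fell (*Plagl1* and *Peg10*) in *Kat6a*–/– compared with *Kat6a*+/+ cells, where 51.3% of all 14354 genes were called (25.2% higher and 26.1% lower). In 2 of the 9, *Ndn* and *Peg10*, the null and wild-type libraries did not overlap, as for 25.9% of all genes. The median log2 fold-change was -0.11 over the 9 and -0.02 over all genes. The fit weighted libraries by an estimated quality, and differentiating null replicate 3 held 67.2% of the weight of its group, against 17.1%, 4.69% and 11.03% for replicates 1, 2 and 4. The 7362 genes called became 2805 without null replicate 1, 2448 without null replicate 3 and 3161 with equal weights, so this background rests on those libraries and weights.

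*Ndn* stood at 50.9, 54.4, 73.1 and 58.9 CPM in differentiating wild-type, 81.7, 123, 100.1 and 73.5 CPM in heterozygous and 119, 130.0, 126 and 138 CPM in null libraries. Every null library was higher than every wild-type library, and the heterozygous libraries lay between, above all wild-type ones and with 1 of them inside the null range. The log2 fold-change of null against wild type was 1.11 (SE 0.14, 95% CI 0.81 to 1.41, limma FDR = 5e-05). Within the 2 litters with both genotypes it was 0.77 and 1.10. *Ndn* stayed past the threshold without each library in turn, at 1.00 to 1.25.

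*Plagl1* stood at 50.2, 41.1, 50.9 and 58.6 CPM in differentiating wild-type, 44.8, 42.2, 48.3 and 28.0 CPM in heterozygous and 11.2, 68.7, 18.3 and 35.3 CPM in null libraries. Null replicates 1, 3 and 4 were below every wild-type library, while replicate 2 was above all of them. The weighted log2 fold-change was -1.36 (SE 0.24, 95% CI -1.88 to -0.84, limma FDR = 0.000551). With equal weights it was -0.88 (limma FDR = 0.162), with a term for sex -0.87 (limma FDR = 0.0803), with edgeR -0.57 (FDR = 0.352) and with DESeq2 -0.56 (FDR = 0.333). Without null replicate 1 it was -0.47 (limma FDR = 0.231) and without null replicate 3 -0.48 (limma FDR = 0.307), while without null replicate 2 it was -1.44 (limma FDR = 1.26e-06). Replicate 2 is the library with the high astrocyte marker sum, and its part in the *Plagl1* value was not tested.

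*Peg10* stood at 885, 623, 869.7 and 841 CPM in differentiating wild-type, 528, 976, 722 and 518 CPM in heterozygous and 531, 610.1, 561 and 457 CPM in null libraries. The null libraries were all lower than the wild-type ones, though null replicate 2 lay close to wild-type replicate 2, the lowest of its group. The log2 fold-change was -0.60 (SE 0.14, 95% CI -0.91 to -0.30, limma FDR = 0.003), and in the 2 litters with both genotypes -0.61 and -0.58. The call held without each library in turn and was lost with edgeR (FDR = 0.0566), with equal library weights (limma FDR = 0.059), with litter as a fixed term (limma FDR = 0.0834) and with a term for sex (-0.34, limma FDR = 0.115).

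*Grb10* did not pass the test in differentiating cells. It stood at 46.6, 10.5, 41.4 and 14.9 CPM in wild-type, 11.1, 62.5, 36.5 and 23.4 CPM in heterozygous and 10.1, 1.83, 24.5 and 26.9 CPM in null libraries. The wild-type libraries themselves spanned a wide range, null replicate 2 was the lowest of all 24 libraries, and the log2 difference was -0.78 (SE 0.58, 95% CI -2.03 to 0.48, limma FDR = 0.281). The 2 litters with both genotypes gave opposite signs, -2.79 and 0.72.

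The remaining genes gave no call and had wide intervals or overlapping libraries. *Mest* was at 67.3 to 94.4 CPM in wild-type and 51.1 to 106 CPM in null libraries, with a log2 difference of -0.11 (SE 0.23, 95% CI -0.60 to 0.39, limma FDR = 0.714). *Igf2* was at 1.04 to 2.56 and 0.271 to 1.64 CPM, with -0.73 (SE 0.41, 95% CI -1.62 to 0.15, limma FDR = 0.15), and *H19* at 2.12 to 3.80 and 1.29 to 4.98 CPM, with 0.24 (SE 0.35, 95% CI -0.52 to 1.00, limma FDR = 0.585). *Dlk1* was at 1.09 to 4.09 and 0.575 to 7.37 CPM, with 0.76 (SE 0.66, 95% CI -0.69 to 2.20, limma FDR = 0.361). *Meg3* stayed at or below 0.380 CPM in 7 of the 8 libraries and reached 2.90 CPM in null replicate 4 (46 reads).

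In differentiating null cells 5 of 9 tested mesenchymal and meningeal markers rose and 1 fell, and their sum was 424 to 802 CPM against 437 to 517 in wild-type cells. *Col1a1* was at a mean of 105 CPM in null and 6.13 CPM in wild-type libraries, while *Lum*, *Twist2* and *Aldh1a2* were at or near 0. Of 9 neuron markers tested 1 rose and 5 fell, with a median log2 fold-change of -0.73, and their sum was 465 to 774 CPM in null and 547 to 739 CPM in wild-type libraries. Of 6 oligodendrocyte lineage markers 1 rose and 4 fell, with a median of -0.56 and a sum of 688 to 1201 against 1193 to 1402 CPM. The pericyte and smooth muscle sum was 292 to 1053 against 404 to 863 CPM, with 2 of 4 markers higher. The astrocyte sum was 1525 to 7556 CPM in null and 1809 to 2516 CPM in wild-type libraries, and 1 of the 8 markers rose and 1 fell. The part of other cell types in the *Ndn*, *Plagl1* and *Peg10* differences was not tested.

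**Figure D4:**
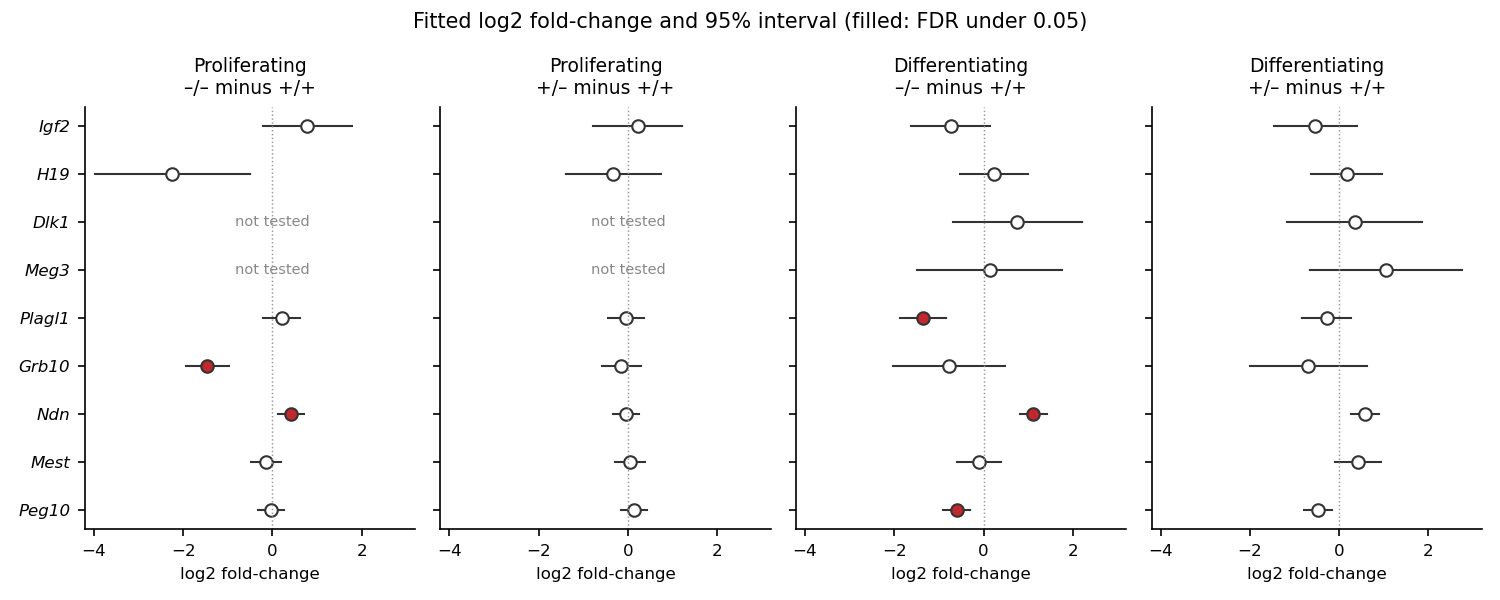
Log2 fold-change with its 95% confidence interval for 9 of the genes, in null and in heterozygous against wild-type cells of each condition. Filled points have a limma FDR under 0.05: *Grb10* and *Ndn* in proliferating null cells, *Plagl1*, *Ndn* and *Peg10* in differentiating null cells, and no gene in heterozygous cells.

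Loss of 1 allele was compared with wild type in the same way. In proliferating cells 0 of 7 genes and 0% of all genes were called by limma, with 964 genes and 0 of the 7 at an unadjusted p under 0.05; edgeR called 0 genes and DESeq2 29, none of them among the 7. No gene of the 7 had separate libraries, where 4.47% of all genes did. In differentiating cells 0 of 9 and 0% of all genes were called by limma, with 1951 genes and 2 of the 9, *Ndn* and *Peg10*, at an unadjusted p under 0.05; edgeR called 0 genes and DESeq2 12, *Ndn* among them (log2 fold-change 0.68, FDR = 0.0452). The count over all genes in differentiating cells became 143 without heterozygous replicate 3 and 111 without wild-type replicate 2, with 0 of the 9 genes called. In proliferating cells it was 0 to 6 without each library in turn.

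*Ndn* was the 1 gene of the 9 with separate heterozygous and wild-type libraries in differentiating cells, where 2.72% of all genes were separate, and its limma log2 difference was 0.58 (SE 0.14, 95% CI 0.27 to 0.89, limma FDR = 0.193). *Peg10* had a log2 difference of -0.46 (SE 0.14, 95% CI -0.78 to -0.15, limma FDR = 0.251) there, with heterozygous replicate 2 at 976 CPM above every wild-type library. That library, the one with the high pericyte and smooth muscle marker sum, was also the highest heterozygous library for *Ndn*, *Grb10*, *H19*, *Dlk1* and *Mest*, with *Mest* at 296 CPM against 86.9 to 131 in the others. Without it the log2 differences were 0.49 for *Ndn* (limma FDR = 0.104) and -0.61 for *Peg10* (limma FDR = 0.0795), and a link to that marker sum was not tested. In proliferating cells the *Grb10* difference of heterozygous against wild type was -0.15 (SE 0.20, 95% CI -0.59 to 0.29, limma FDR = 0.919), so a drop as large as that of the null cells lies outside its interval.

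Null against heterozygous cells gave 2 of 7 calls in proliferating cells, against a background of 14.4% (8.31% higher and 6.06% lower), which fell from 1867 genes to 707 without null replicate 4, 1021 without null replicate 1, and 841 or 1240 without heterozygous replicate 1 or 2. *Grb10* fell (-1.31 (SE 0.21, limma FDR = 0.0029)) and *Ndn* rose (0.47 (SE 0.13, limma FDR = 0.0358)). The *Ndn* call held in 6 of 10 other settings and was lost with edgeR (FDR = 0.0839), no filter (limma FDR = 0.0626), no litter block (limma FDR = 0.0912) and a replicate block (limma FDR = 0.0603). It held without 5 of the 12 libraries and was lost without any 1 null library or heterozygous replicate 1, 2 or 4 (limma FDR = 0.0598 to 0.101). In 3 of the 7, these 2 and *H19* (-1.91 (SE 0.80, limma FDR = 0.122)), the libraries did not overlap, against 12.3% of all genes. In differentiating cells 2 of 9 were called, against 34.2% (17.5% higher and 16.8% lower, 4914 genes, and 559, 7732 or 457 without null replicate 1, 2 or 3), with *Plagl1* lower (-1.08 (SE 0.28, limma FDR = 0.0116)) and *Ndn* higher (0.54 (SE 0.16, limma FDR = 0.0235)), and no gene of the 9 had separate libraries, against 15.6%. The *Ndn* and *Plagl1* calls of differentiating cells were lost without null replicate 1 (limma FDR = 0.151 and 0.768) or null replicate 3 (limma FDR = 0.184 and 0.806). The *Ndn* call was also lost without heterozygous replicate 1 (limma FDR = 0.203) or 4 (limma FDR = 0.115). The comparisons with wild type and with heterozygous cells share the null libraries.

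An interaction term over all 24 libraries tested whether null and wild-type cells differed more in one condition than in the other. Of the 9 genes 1 was called, *Ndn*, against 13.8% of all 14704 genes, 5.06% with a positive and 8.79% with a negative interaction (2036 genes, and 3592 without differentiating null replicate 2 or 1297 without proliferating wild-type replicate 1). Its log2 fold-change was larger in differentiating than in proliferating cells by 0.80 (SE 0.23, 95% CI 0.33 to 1.26, limma FDR = 0.0219). The call was lost without proliferating wild-type replicate 1 (0.69, limma FDR = 0.0605). For *Grb10* the difference between conditions was 0.38 (SE 0.86, 95% CI -1.42 to 2.17, limma FDR = 0.812), so an unequal effect was not shown, although the gene passed the test in 1 condition only. *Plagl1* gave -1.19 (SE 0.73, limma FDR = 0.292), which became -1.61 (limma FDR = 0.02) without differentiating null replicate 2, and *Peg10* gave -0.47 (SE 0.26, limma FDR = 0.238). *H19* gave 2.62 (SE 0.93, 95% CI 0.69 to 4.54, limma FDR = 0.0638), with a log2 fold-change that was negative in proliferating and positive in differentiating cells. It passed the threshold with edgeR (FDR = 0.0269) and DESeq2 (FDR = 0.00574). It also passed without differentiating heterozygous replicate 2 (limma FDR = 0.0485), differentiating null replicate 1 or 2 (limma FDR = 0.0428 and 0.0326) or proliferating wild-type replicate 3 (limma FDR = 0.0266). These were 2 of 10 other settings and 4 of 24 single libraries left out, and in the remaining fits *H19* was outside (limma FDR up to 0.104 and 0.124).

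**Figure D5:**
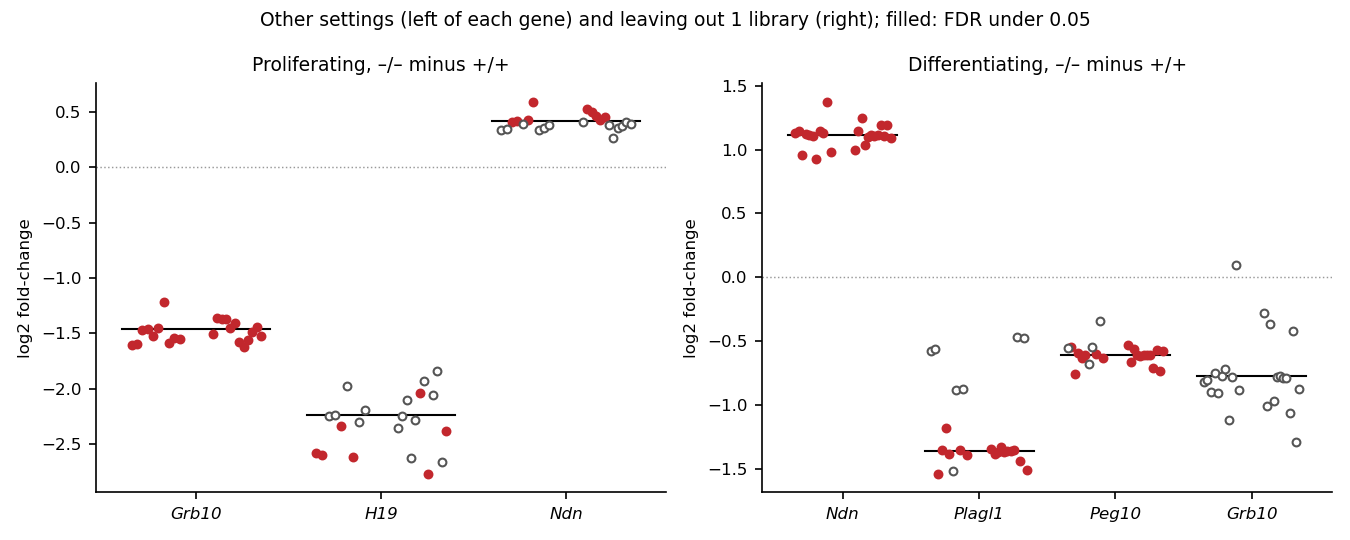
Log2 fold-change of null against wild type for the genes named in each condition, under other analysis settings (points left of each gene's centre) and without each library in turn (points right of it), with a line at the reported value and filled points at an FDR under 0.05. *Grb10* in proliferating and *Ndn* in differentiating cells keep their direction and pass the threshold at every point, while *Plagl1* in differentiating cells spreads from -1.54 to -0.47.

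The neighbours of these genes in their imprinted domains were read from a list of 35 cluster mates, of which 16 were tested in proliferating and 19 in differentiating cells. In null against wild-type proliferating cells 2 of the 16 rose and 3 fell, where 29.4% of all genes were called, and in differentiating cells 6 of the 19 rose and 5 fell, where 51.3% were, so both shares are close to the background. In the domain beyond *Igf2* and *H19*, *Cdkn1c*, which encodes a maternally read inhibitor of cyclin-dependent kinases, fell in both conditions, with log2 fold-changes of -1.32 (limma FDR = 0.00366) and -3.18 (limma FDR = 0.000484). *Cdkn1c* stood at 9.55 to 16.4 CPM in proliferating wild-type and 3.90 to 6.17 CPM in null libraries. *Cd81*, a tetraspanin of the same region, rose in both, by 0.49 (limma FDR = 0.00153) and 0.92 (limma FDR = 2.19e-05).

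Next to *Ndn*, *Mkrn3* was not called, at 0.00 (limma FDR = 0.991) in proliferating and -0.27 (limma FDR = 0.1) in differentiating cells, and *Ube3a*, a maternally read ubiquitin ligase gene in neurons, was not called at 0.12 (limma FDR = 0.264) and 0.10 (limma FDR = 0.276). *Atp10a* of the same domain went in opposite directions, -0.89 (limma FDR = 0.00165) and 0.95 (limma FDR = 9.15e-05), and the difference was 1.84 (limma FDR = 0.000198). *Peg12* fell in proliferating null cells, -0.33 (limma FDR = 0.0123), and was lower in differentiating than in proliferating wild-type cells, -3.04 (limma FDR = 7e-12). *Snrpn* was at -0.62 (limma FDR = 0.0651) in differentiating null cells.

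Beside *Peg10*, the head-to-head neighbour *Sgce*, which encodes epsilon-sarcoglycan, rose in differentiating null cells, 0.32 (limma FDR = 0.0108), where *Peg10* fell. *Ppp1r9a* farther along rose in proliferating, 0.36 (limma FDR = 0.00677), and fell in differentiating null cells, -0.64 (limma FDR = 0.000739). Beside *Mest*, *Copg2* was at 0.07 (limma FDR = 0.59) and -0.09 (limma FDR = 0.145), not called. The neighbours of *Grb10* were tested only in differentiating cells, where *Ddc*, the gene for DOPA decarboxylase, fell, -2.58 (limma FDR = 0.000313), and *Cobl*, an actin nucleator gene, rose, 2.69 (limma FDR = 2.65e-05). In differentiating null cells *Sgce* thus rose where *Peg10* was called lower, while *Ppp1r9a* fell with it. *Atp10a* rose with *Ndn* there, and in proliferating null cells *Atp10a* and *Peg12* fell where *Ndn* was called higher. That *Peg10* call and the proliferating *Ndn* call were each lost in some other settings. *Grb10* was not called beside *Ddc* and *Cobl*, nor were *Igf2* and *H19* beside *Cdkn1c* and *Cd81*, so no direction can be compared there.

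Among other imprinted genes, 22 were tested in proliferating cells, where 5 rose and 4 fell in null cells (29.4% of all genes were called), and 24 in differentiating cells, where 8 rose and 6 fell (51.3% of all genes). *Slc38a4*, an amino acid transporter gene, was at -4.07 (limma FDR = 0.00322) in proliferating cells, *Sfmbt2* at 1.32 (limma FDR = 0.0307) and *Usp29* at -1.24 (limma FDR = 0.00593). *Usp29* was also lower in differentiating null cells, at -2.56 (limma FDR = 3.92e-06). In differentiating cells *Nnat*, the gene for neuronatin, was at -3.39 (limma FDR = 6e-06), *Htr2a* at 3.35 (limma FDR = 0.000324) and *Sfmbt2* at 3.14 (limma FDR = 3.56e-06). The list medians were -0.03 in proliferating and 0.06 in differentiating cells, next to 0.00 and -0.02 over all genes.

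The insulin-like growth factor pathway, in which IGF2 is a ligand and GRB10 a receptor-bound restraint, had 14 genes tested in proliferating cells, of which 3 rose and 5 fell, against 15.9% of all genes higher and 13.5% lower. The largest changes were *Igf2bp2*, an RNA-binding protein gene, at -2.64 (limma FDR = 2.72e-05), *Stc2* at -1.66 (limma FDR = 0.0152) and *Grb14*, which encodes an adaptor of the same family as *Grb10*, at -1.56 (limma FDR = 0.000306). In differentiating cells 11 of 19 rose and 1 fell, with a median of 0.45 against -0.02 over all genes, of which 25.2% rose and 26.1% fell. The binding-protein genes *Igfbp7* (4.13 (limma FDR = 2.05e-05)), *Igfbp4* (3.32 (limma FDR = 1.54e-05)) and *Igfbp2* (2.71 (limma FDR = 0.00026)) rose most. The receptor genes *Igf1r* (1.08 (limma FDR = 0.000616)) and *Igf2r* (1.08 (limma FDR = 0.000337)) also rose, and are named for their role after their values were seen. Counts and FDRs of this and the other gene lists were not recomputed under other settings or without single libraries. Those of differentiating cells rest on the weighted fit, where null replicate 3 held 67.2% of the weight of its group. All lists were chosen with earlier results of these data known.

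Of the MAGE family and its partners, 11 genes were tested in each condition, and 3 rose and 3 fell in proliferating null cells, 4 and 3 in differentiating ones, against 29.4% and 51.3% of all genes called. Besides *Ndn*, *Maged2* rose in both conditions, 0.95 (limma FDR = 0.00042) in proliferating and 0.85 (limma FDR = 0.000104) in differentiating cells. *E2f1*, the cell-cycle factor that necdin binds, fell in both, -0.47 (limma FDR = 0.00414) and -1.33 (limma FDR = 0.000521). *Magee2* fell in differentiating null cells, -0.96 (limma FDR = 0.00435). Of the 13 tested genes that maintain or erase imprints, 1 rose and 4 fell in proliferating null cells, where 13.5% of all genes fell, and 1 rose and 9 fell in differentiating ones, where 26.1% of all genes fell. *Uhrf1*, which guides maintenance methylation, fell in both, -0.55 (limma FDR = 0.0146) and -2.77 (limma FDR = 3.56e-06), as did *Dnmt1*, the maintenance methyltransferase gene, -0.39 (limma FDR = 0.0326) and -0.95 (limma FDR = 1.97e-05). *Trim28*, the co-repressor that works with ZFP57, also fell in both, -0.35 (limma FDR = 0.0249) and -0.30 (limma FDR = 0.0165), and *Tet1* fell in differentiating null cells, -1.02 (limma FDR = 1.28e-05). DNA methylation was not measured in these libraries.

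Likeness of pattern was described by Pearson's r of log2 CPM over the 24 libraries, whose values also follow condition and extraction kit. *Mest* and *Peg10* had r = 0.90 and, after removing the 6 group means, 0.55, and *Grb10* and *Mest* 0.84 and 0.59. *Plagl1* and *Mest* had r = -0.91 and, within groups, -0.41, while the domain partners *Dlk1* and *Meg3* had 0.73 and 0.47 and *Igf2* and *H19* -0.21 and 0.00 (rounded). Over all genes tested, the pattern most like that of *Plagl1* was *Raver2* (r = 0.987), followed by *Pard3b* and *Msi1*. The closest to *Grb10* was *Tro* (0.943), to *Mest* *Nup58* (0.985), to *Peg10* *Lsm8* (0.958) and to *Ndn* *Sfmbt2* (0.845). For *H19* the closest were *Ndrg1* (0.818), *Slc2a3* (0.808) and *Slc2a1* (0.777).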

How the data were processed

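Libraries were made by the authors from 200 ng of RNA with a stranded poly(A) kit (TruSeq). Per the study's methods and the submitters' processing notes, the authors aligned reads to mm39 with Rsubread, counted them per gene with featureCounts and a strict RefSeq annotation, and deposited unnormalised read counts; the versions used for these RNA libraries are not given in the sources used here. The 10 genes and all gene lists were chosen with earlier results of these data known. Groups follow the sample labels, and replicates carry embryo labels. Genes passing edgeR's filterByExpr were scaled by TMM, with *Xist* and Y-linked genes removed and non-coding genes kept. Proliferating libraries (12989 genes) were fitted by limma-voom, where litter entered as a random effect (correlation 0.282). Differentiating libraries (14354 genes) were fitted by limma-trend (prior count of 2) with library quality weights. The wild-type condition comparison and the interaction used limma-voom on all 24 libraries in the same way (14704 genes, correlation 0.00554). Wild-type replicate 2 carries different litter numbers in the 2 conditions, which were used as labelled; it shares neither with another library, so only the 24-library fit depends on them, and it was not counted among the embryos labelled in both conditions. Robust empirical Bayes tests were two-sided, with Benjamini-Hochberg adjustment over all genes tested and a threshold of 0.05.

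CPM are counts over TMM-scaled totals of the 24-library fit. All 10 genes were named by rule. Cluster mates could be named where tested, and from the other lists the 3 called genes with the largest absolute log2 fold-change, some of them also with their value in the other condition. Alternatives were edgeR and DESeq2 tests, library totals or DESeq2 size factors, no low-count filter, protein-coding genes only, litter fixed or absent, no quality weights, a sex term, a replicate or embryo block, and leaving out each library. On simulated counts (100 genes at each fold) the proliferating fit recovered 97 genes at 2-fold and 100 at 4-fold, the differentiating fit 94 and 100, and the interaction 56 and 100. False calls numbered 12, 6 and 2. Every simulated gene had the same spread, with no litter effect and no library set apart, and genes of low level were not changed. These shares therefore do not give the power for the 10 genes in the real libraries. Replicates differed beyond sampling noise (chi-square over its degrees of freedom at least 5.55), so each library counted once. Floors of 3 counts cover counting error only. Tools were R 4.3.3, limma 3.58.1, edgeR 4.0.16, DESeq2 1.42.0, Python 3.11.15, pandas 2.3.3 and matplotlib 3.10.9.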

Additional observations from a re-analysis of the deposited data

Results flagged for a closer look

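Of 50 groups of 4 libraries (10 genes in 6 groups, where counts sufficed), 6 held a library whose gap to its nearest neighbour was large for the range of the group, a rule that chance meets in about 1 of 20 groups. *Igf2* was at 2.84 CPM in proliferating heterozygous replicate 4, with the others at 0.555 to 0.727 CPM. *H19* was at 7.86 CPM in differentiating heterozygous replicate 2, with the others at 2.41 to 3.30 CPM. *Dlk1* was at 0.706 CPM (12 reads) in proliferating wild-type replicate 2, with the others at 0 to 0.0984 CPM. *Meg3* was at 2.90 CPM in differentiating null replicate 4, with the others at 0.0523 to 0.177 CPM. *Mest* was at 67.3 CPM in differentiating wild-type replicate 4, below the others at 90.3 to 94.4 CPM. *Peg10* was at 623 CPM in differentiating wild-type replicate 2, below the others at 841 to 885 CPM.

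The effect of losing both *Kat6a* alleles on *Ndn* was larger in differentiating than in proliferating cells, with an interaction of 0.80 on the log2 scale (limma, FDR = 0.0219). This call was lost with litter as a fixed term (limma FDR = 0.0948) and without proliferating wild-type replicate 1 (limma FDR = 0.0605).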

How the results depend on the processing

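Of the log2 differences recomputed for the genes named, 566 of those without 1 library and 341 of those under other settings kept their direction and their side of the threshold. Another 24 and 33 lost the call, 9 and 8 gained one, and 13 and 8 changed sign. No change of sign touched a called difference. The causes were not tested.

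Under other settings, *Plagl1* and *Peg10* in proliferating null against wild-type cells changed sign to -0.0947 and 0.114 with litter as a fixed term. *Dlk1* in differentiating null cells became -0.544 and *Ndn* between conditions in wild-type cells 0.0458 with the same term. With a term for sex, differentiating null against wild-type *Grb10* became 0.10 and *Mest* 0.39, and *Peg10* of heterozygous against wild type 0.00256. *Meg3* in differentiating null cells became -0.0178 with library totals. Without each library in turn, *Peg10* in proliferating null cells ranged from -0.165 to 0.0291, *Mest* there from -0.278 to 0.0123, *Meg3* in differentiating null cells from -0.255 to 1.82, *Ndn* between conditions from -0.188 to 0.0563, and the *Grb10* interaction from -0.0378 to 1.36.

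The number of the genes called in proliferating null against wild-type cells was 1 with a sex term and 1 to 3 without each library. Against heterozygous cells it was 1 with edgeR, without a filter or without the litter block, and 1 to 2 without each library. In differentiating null against wild-type cells it was 1 with edgeR, litter as a fixed term, equal weights or a sex term. Against heterozygous cells it was 0 with edgeR, no filter, litter fixed, equal weights or a sex term, 1 with library totals, and 0 to 3 without each library. For heterozygous against wild-type differentiating cells it was 1 with DESeq2. For the interaction it was 2 with edgeR and with DESeq2, 0 with litter fixed, and 0 to 3 without each library.

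Replicate numbers did not pair the samples, since deviations of same-numbered libraries correlated at -0.30 to 0.46 in proliferating cells (4 of 12 over 0.1) and -0.45 to 0.15 in differentiating cells (1 of 12). With a replicate block the calls were 1 in proliferating null against wild type, 1 against heterozygous and 1 in differentiating null against heterozygous cells.

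Over all genes, null against wild type gave 3813 calls in proliferating cells and 2016 with litter fixed. In differentiating cells it gave 7362, and 3329 with edgeR, 4175 with DESeq2, 2918 with litter fixed, 3161 with equal weights and 3922 with a sex term. Null against heterozygous cells gave 1867 calls in proliferating cells, with 1012 by edgeR and 991 without the litter block, and 4914 in differentiating cells, with 1264 to 2637 under 6 settings. Depth limits *Igf2*, *Dlk1*, *Meg3* and *Magel2*, whose counts were mostly below 100 reads per library.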
